A study of Mus musculus with 26 samples.

Results

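Gene expression in inguinal subcutaneous white adipose tissue was compared between total ChREBP-KO mice and WT mice of the same line. These were 14 of the 26 arrays of the series, chosen by the genotype in their titles, with 7 KO and 7 WT mice and 1 array per mouse. The KO mice were Mlxipl-null throughout the body, so that both isoforms of ChREBP, α and β, were missing in every tissue. The design does not separate the loss in fat from the loss in other organs. Per the study, the mice used for the arrays were C57BL6/J males. Their age was not given in the sources used here. All mice of both genotypes were on regular chow, and tissue was taken after a fast of 24 h and a refeeding period of 18 h in which the drinking water held 20% glucose. The other 12 arrays, from a line that lacks ChREBPβ alone and from its own WT mice, entered the same statistical model and were used here only to test where the effects of both KO differ.

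ChREBP, encoded by Mlxipl, is a transcription factor that glucose metabolites activate. With its partner Mlx it binds carbohydrate response elements, which are paired E-boxes, and it is best known for turning on genes of glycolysis and fatty acid synthesis in liver and fat after a carbohydrate meal. The β isoform starts from an alternative first exon, whose promoter is itself a target of ChREBP. Since genes of de novo lipogenesis and thermogenesis are the best described part of this response, the values below concern mainly the other pathways.

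The share of spots well above background was 70.2% to 76.1% on KO and 71.5% to 74.5% on WT arrays, with 0 saturated. Across probes, the 14 arrays correlated with each other at Pearson's r of 0.953 to 0.997. Inguinal fat surrounds a lymph node and lies on muscle, and marker signals of both differed between arrays. A score, the mean log2 intensity over a marker list, was used to follow these signals. The lymphocyte score (18 of 18 listed genes tested) had a lowest, median and highest value of 7.57, 9.94 and 10.84 in KO and 10.51, 11.75 and 12.10 in WT. KO replicates 1, 4 and 7 had the 3 lowest scores and stood apart. The skeletal muscle score (13 of 13 tested) was 6.29, 10.84 and 13.20 in KO and 6.08, 6.26 and 11.79 in WT, where replicates 1 and 5 were above 10. All 18 lymphocyte genes were lower in KO (median log2 change -2.43), led by Fcmr, an immunoglobulin M receptor, at -3.03, and all 13 muscle genes had positive values (median 2.61), of which 3 passed. The muscle count rested on single arrays. It was 12 without WT replicate 1, 11 without KO replicate 4, 8 without WT replicate 5, 7 without KO replicate 5, 2 without KO replicate 3 or 8, and 1 without any one of the other arrays. Without KO replicates 1, 4 and 7 the number of genes called was 7642, and without WT replicates 1 and 5 it was 11039, against 11644 with all arrays. In bulk tissue, fewer cells of a type and less RNA per cell cannot be told apart. The counts of calls by list are therefore given also from a fit with both scores as covariates, in which 1 lymphocyte gene (Blk) and 0 muscle genes passed. As these genes make up the scores, the loss of their calls is largely given by the fit.

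**Figure D1:**
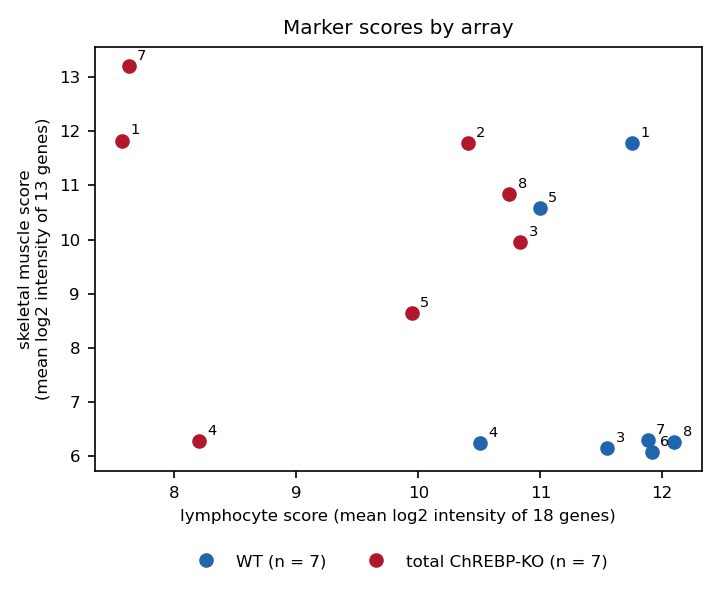
Lymphocyte score (x axis) against skeletal muscle score (y axis), each a mean log2 intensity over the marker list, for the 7 WT and 7 total ChREBP-KO arrays, with the replicate number beside each point. WT arrays sit between 10.51 and 12.10 on the x axis and KO arrays between 7.57 and 10.84, and muscle scores above 10 occur in both groups.

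The targeted gene was examined first. The brightest Mlxipl probe (A_55_P2119957, chromosome 5, 135613705 to 135613764 of mm9) had raw intensities between 11639 and 17572 in KO and between 55418 and 95372 in WT. On the normalized log2 scale it was 13.63, 13.76 and 13.95 in KO (lowest, median, highest) and 15.77, 15.99 and 16.53 in WT, so that the groups did not overlap. The change was -2.29 (SE 0.12, limma adjusted p = 1.86e-13), which left 20.5% of the WT signal. Probe A_55_P2728555 fell by 0.90 (SE 0.12, adjusted p = 2.25e-06), and its arrays did not overlap either. The third probe, A_55_P2045158, changed by -0.13 (SE 0.07, adjusted p = 0.158). At 2 of the 3 probes, then, all 7 KO arrays were below all 7 WT arrays.

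Promoter windows, from 250 bases before to 50 bases after a start site, were read from RefSeq for GRCm38.p6 to see whether the palindrome to which ChREBP and related factors bind is present in genes that fell. RefSeq gives Mlxipl 2 start sites that lie 17001 bases apart. The windows of the upstream Mlxipl start and of 3 of the genes with the largest falls, Acot11, Oxtr and Maff, each hold 1 E-box, CACGTG, and are shown for that reason, with the E-box in capitals, 5′ to 3′ on the strand of the gene.
Mlxipl, chr5:135089640-135089939, plus strand: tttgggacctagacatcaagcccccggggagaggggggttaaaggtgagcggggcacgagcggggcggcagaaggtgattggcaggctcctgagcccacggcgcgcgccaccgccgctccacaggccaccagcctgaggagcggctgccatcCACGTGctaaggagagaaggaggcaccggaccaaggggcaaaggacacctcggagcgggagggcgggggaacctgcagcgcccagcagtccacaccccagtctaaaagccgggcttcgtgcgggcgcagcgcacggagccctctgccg
Acot11, chr4:106799782-106800081, minus strand: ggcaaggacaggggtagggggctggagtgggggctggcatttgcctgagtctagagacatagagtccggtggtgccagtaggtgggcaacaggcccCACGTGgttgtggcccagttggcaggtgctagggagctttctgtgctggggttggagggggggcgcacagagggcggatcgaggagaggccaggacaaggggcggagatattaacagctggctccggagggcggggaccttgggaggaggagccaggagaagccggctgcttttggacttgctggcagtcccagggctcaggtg
Oxtr, chr6:112489776-112490075, minus strand: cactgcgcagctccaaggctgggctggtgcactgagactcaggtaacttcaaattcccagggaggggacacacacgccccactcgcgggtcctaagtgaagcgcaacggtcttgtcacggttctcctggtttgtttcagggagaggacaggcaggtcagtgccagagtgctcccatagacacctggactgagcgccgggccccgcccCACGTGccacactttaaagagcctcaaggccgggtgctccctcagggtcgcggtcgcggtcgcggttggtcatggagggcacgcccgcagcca
Maff, chr15:79347270-79347569, plus strand: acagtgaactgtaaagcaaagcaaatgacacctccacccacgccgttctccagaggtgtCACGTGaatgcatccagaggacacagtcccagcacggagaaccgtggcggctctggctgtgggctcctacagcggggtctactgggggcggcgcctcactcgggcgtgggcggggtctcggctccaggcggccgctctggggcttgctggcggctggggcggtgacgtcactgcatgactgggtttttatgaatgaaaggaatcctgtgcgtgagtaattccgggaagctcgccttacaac
The first base of the E-box lies at -98 from the start site in Mlxipl, -154 in Acot11, -43 in Oxtr and -191 in Maff. The motif reads the same on both strands. It was present in the windows of 8.09% of all 27025 genes with one and of 10.3% of the 13590 tested genes with one, in 3 of 10 genes with a window among the 12 largest falls, and in 1 of 10 among the 12 largest rises. Over the lists that lead from glucose to fatty acids it was present in 4 of 32 genes that fell, 3 of 13 that rose and 5 of 27 that were not called. The full carbohydrate response element, searched as 2 E-box-like hexamers 5 bases apart, was in the windows of 37 of the 27025 genes (0.137%). Among the 13590 tested genes 14 held it (0.103%), but none of the largest falls, the largest rises or the genes of these lists did. A match describes the letters in this window, and no match says only that they are not in it.

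Loss of both isoforms was accompanied by changes in a large part of the transcriptome. Of 25407 genes tested, each at its brightest probe, 45.8% were called at an adjusted p of 0.05 in limma, 25.8% as higher and 20.1% as lower in KO. Since so many genes passed, the share of a list that passed is to be read against these values. The median absolute log2 change of the called genes was 0.43, and 1819 changed at least 2-fold, 532 of them higher and 1287 lower. In 14.8% of all genes the ranges of KO and WT were separate. With the lymphocyte and muscle scores as covariates 14.5% were called. Of the 11644 genes called without and the 3683 called with the scores, 3527 were shared.

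Genes are named below by the size of the change among those that were called, whose arrays did not overlap, that were above background on every array of the brighter group and that were called in the same direction with both scores. These conditions were met by 1448 genes that were higher and 493 that were lower, and the 12 with the largest change in each direction are described. Among the falls were several receptors at the cell surface, and among the rises a pair of cytochrome P450 enzymes and the enzymes that make cysteine from homocysteine.

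Slc2a5, which encodes the fructose transporter GLUT5 (probe on chromosome 4, 149517775 to 149517834 of mm9), fell most. Its level was 4.23, 4.60 and 7.91 in KO and 13.85, 14.09 and 14.33 in WT (log2; lowest, median, highest), a change of -9.01 (SE 0.43, adjusted p = 4.63e-14). As 2 of 7 KO arrays were above background, the size is not exact. Ucp1, the uncoupling protein of thermogenic adipocytes, had a median of 8.10 in KO and 16.21 in WT, where the lowest array was 12.58, a change of -6.87 (SE 0.75).

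Receptors and a cyclase follow. Oxtr, the oxytocin receptor (chromosome 6, 112423686 to 112423745 of mm9), was 7.40, 8.27 and 9.18 in KO and 11.46, 12.49 and 12.91 in WT, a change of -4.20 (SE 0.25, adjusted p = 1.34e-12). Pth1r, the receptor for parathyroid hormone, was 8.90, 9.13 and 9.31 in KO and 13.16, 13.33 and 13.75 in WT, and fell by 4.26 on the log2 scale (SE 0.29). Both receptors were thus more than 2 log2 units lower on the highest KO array than on the lowest WT array. Ntrk3, the neurotrophin-3 receptor, changed by -4.38 (SE 0.26), and Sorcs2, a receptor of the sortilin family, by -4.80 (SE 0.29). Adcy10, the soluble adenylyl cyclase, was 6.47, 6.55 and 7.72 in KO and 10.75, 11.35 and 12.04 in WT, a change of -4.51 (SE 0.29), and its 3 other probes fell too, by between 1.95 and 4.39.

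The remaining falls were in enzymes and a transcription factor. Acot11, an acyl-CoA thioesterase, changed by -4.42 (SE 0.40) and Aspg, an asparaginase, by -3.98 (SE 0.41). Hephl1, a copper-dependent ferroxidase, changed by -4.28 (SE 0.45), with its highest KO array (10.53) close to its lowest WT array (10.95). Prss35, of the serine protease family, was well above background on 7 WT arrays and 0 KO arrays. This gives a bound, at least 21.1-fold lower, for the KO mice (adjusted p = 3.25e-12). Maff, a small Maf transcription factor, changed by -3.73 (SE 0.23).

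Foxo6, a forkhead transcription factor (chromosome 4, 119939688 to 119939747 of mm9), had the largest rise. It was 6.22, 6.46 and 6.89 in WT and 10.24, 10.74 and 11.41 in KO, a change of 4.30 (SE 0.20, adjusted p = 1.72e-14). The highest WT array was more than 3 log2 units below the lowest KO array. Unc93a, a membrane protein, rose by 4.27 (SE 0.19) at its brightest probe, while a second probe changed by -0.02. Cyp2b10 and Cyp2b9, cytochrome P450 enzymes that act on foreign compounds and steroids, rose by 3.97 (SE 0.38) and 3.72 (SE 0.34). As close relatives they may share signal.

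Both transsulfuration enzymes were among the 12 rises. Cbs, which joins homocysteine and serine to cystathionine, was 7.48, 7.65 and 10.01 in WT and 11.05, 11.32 and 11.59 in KO, a change of 3.30 (SE 0.33, adjusted p = 2.09e-08). Cth, which splits cystathionine to cysteine, was 7.31, 7.98 and 8.22 in WT and 10.39, 10.56 and 11.37 in KO, a change of 2.84 (SE 0.17, adjusted p = 2.12e-12). In both genes every KO array was above every WT array, which the choice of these genes required. Slc2a13, a transporter of myo-inositol, rose by 2.91 (SE 0.15) and Slc25a34, of the mitochondrial carrier family, by 2.95 (SE 0.21), the latter with a second probe at -0.05. Hydin, a protein of motile cilia, rose by 3.32, Nap1l5, of the nucleosome assembly protein family, by 3.21, Rgs7bp, a membrane anchor of G protein regulators, by 2.87, and Lrrtm1, a leucine-rich repeat protein of synapses, by 2.84 (SE between 0.17 and 0.23).

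**Figure D2:**
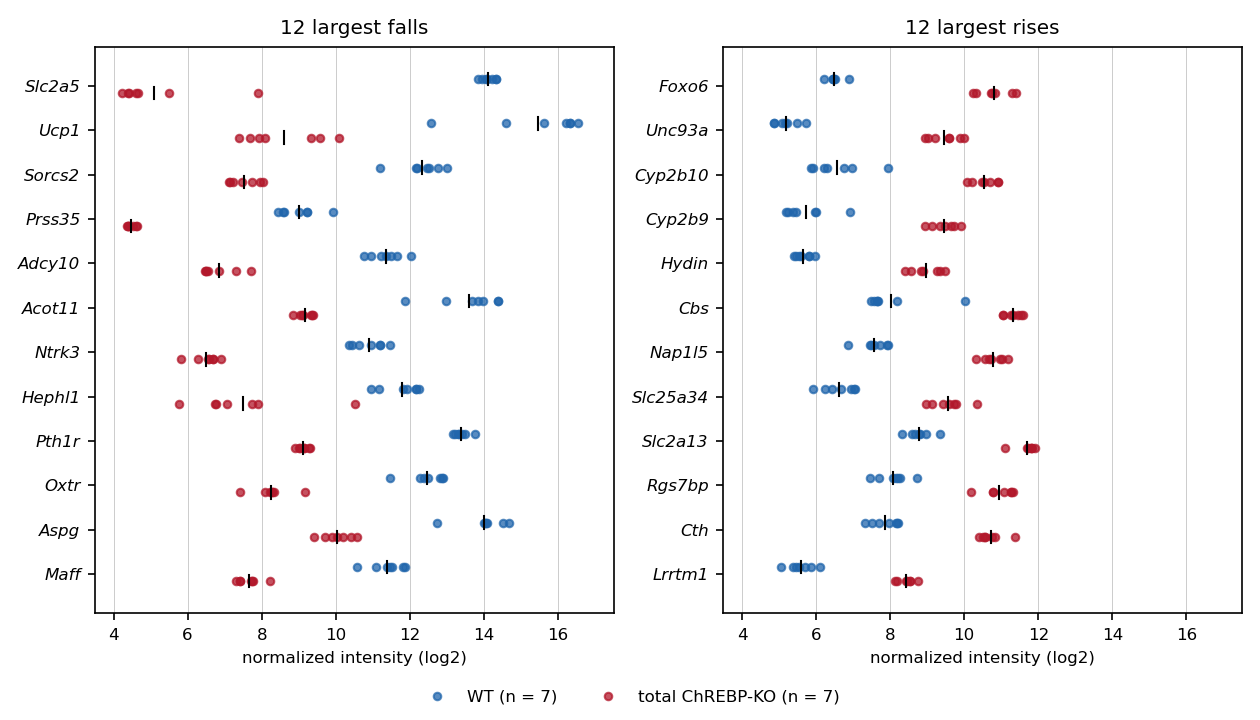
Normalized log2 intensity (x axis) on each of the 7 WT and 7 total ChREBP-KO arrays for the 12 largest falls (left) and the 12 largest rises (right), with points for arrays and a vertical bar for each group's mean. The groups do not overlap in any of these genes, which the choice of genes required, and the falls run from -3.73 in Maff to -9.01 in Slc2a5 and the rises from 2.84 in Lrrtm1 to 4.30 in Foxo6.

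Pathway genes were then described by 34 lists, which held 693 different tested genes. Of these 261 were higher, 142 lower and 290 not called. Another tested probe was available for 228 of the 403 called genes. All other probes had the same sign in 214 of these, and in 2, Mthfd1 and Mgea5, another probe was called the other way.

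**Figure D3:**
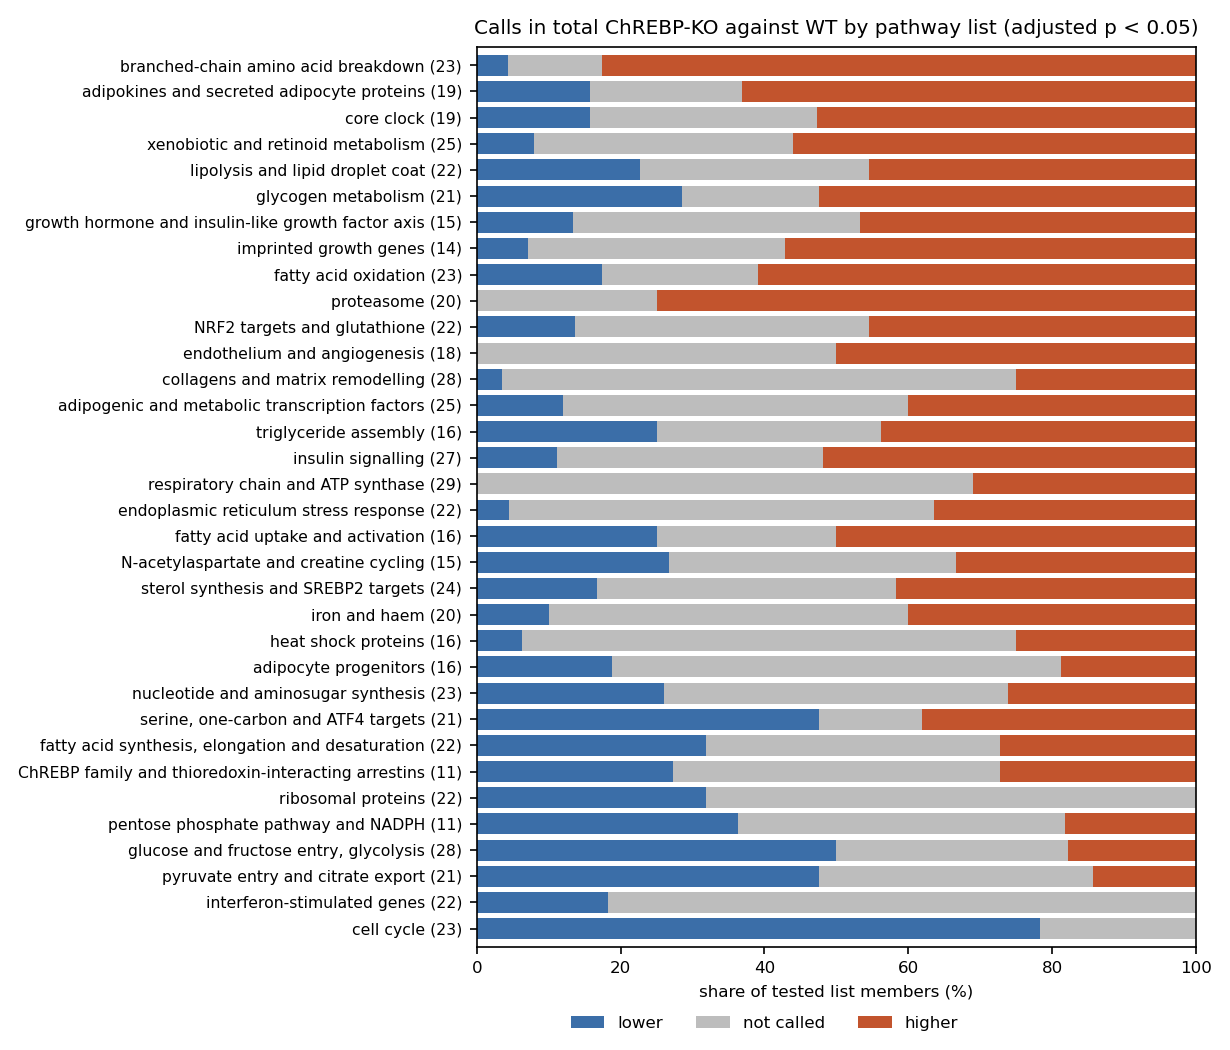
Share of the tested members of each of the 34 pathway lists (x axis, percent, with the number of members in parentheses) that were lower, not called or higher in total ChREBP-KO at an adjusted p under 0.05, ordered by the median log2 change of the list. Branched-chain amino acid breakdown has 19 of 23 members higher, the cell cycle list 18 of 23 lower and glycolysis 14 of 28 lower.

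In hexose uptake and glycolysis 14 of 28 tested genes were lower, 5 higher and 9 not called (median -0.25, against 0.05 over all genes), and 1 more, Pklr, was below the filter. With both scores 12 were lower and 3 higher. Hk2, the inducible hexokinase, was 12.38, 12.48 and 12.76 in KO and 14.03, 14.43 and 14.79 in WT, a change of -1.88 (SE 0.11, adjusted p = 1.52e-12). Eno1, an enolase, changed by -1.66 (SE 0.08), Pfkl, a phosphofructokinase, by -1.44 (SE 0.14) and Pkm, pyruvate kinase, by -1.38 (SE 0.11). Slc2a4, the insulin-regulated glucose transporter GLUT4, was between 15.16 and 15.50 in KO and between 15.94 and 16.48 in WT, a change of -0.87 (SE 0.08). The glycolytic genes did not all fall. Tpi1, triosephosphate isomerase, rose by 1.01 (SE 0.09) between its neighbours in the pathway, and its 3 other probes rose too, by between 0.27 and 1.01. Pfkfb3 and Pfkfb1, which make the activator of phosphofructokinase, rose by 1.33 (SE 0.12) and 0.71.

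The steps from pyruvate to cytosolic acetyl-CoA were lower in 10 of 21 genes and higher in 3. With the scores these counts were 9 and 1. Acly, which splits citrate in the cytosol, was 15.70, 15.93 and 16.18 in KO and 18.10, 18.26 and 18.35 in WT, a change of -2.29 (SE 0.09, adjusted p = 4.13e-15). Slc25a1, the citrate carrier, fell by 1.37 (SE 0.19), and the pyruvate dehydrogenase subunits Pdha1, Pdhb and Dlat by 1.35, 0.94 and 0.90. Pdk1, a kinase that switches this enzyme off, fell by 2.08 (SE 0.11). Of the other kinases Pdk3 fell by 0.39, while Pdk4 changed by -0.27 and Pdk2 by 0.16 without a call. Slc25a10, the dicarboxylate carrier, rose by 0.75 (SE 0.13).

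In NADPH supply 4 of 11 genes were lower and 2 higher, and 5 and 2 with the scores. Tkt, transketolase, fell by 1.86 (SE 0.08) and Me1, malic enzyme, by 1.11 (SE 0.12), whereas cytosolic Idh1 rose by 0.79 (SE 0.09). Fatty acid synthesis and its elongases and desaturases were divided, with 7 of 22 lower and 6 higher, and 7 and 3 with the scores. Elovl6 fell by 3.30 (SE 0.14) and Acaca by 2.02 (SE 0.11, with 1 of its 6 other probes at 0.16), but Fads1, the delta-5 desaturase, rose by 0.94 (SE 0.12) and Elovl4 by 1.59 (SE 0.18).

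Glycogen genes changed in both directions, with 11 of 21 higher and 6 lower (Ppp1r3a was below the filter), and 6 and 5 with the scores. Pygl, the liver-type glycogen phosphorylase, was 13.34, 13.55 and 13.99 in KO and 16.01, 16.10 and 16.53 in WT, a change of -2.58 (SE 0.12, adjusted p = 1.72e-14). Gbe1, the branching enzyme, fell by 1.80 (SE 0.12), Ugp2, which makes UDP-glucose, by 1.01 (SE 0.08), and Ppp1r3b, a glycogen-targeting subunit of protein phosphatase 1, by 1.01 (SE 0.09). Other isoforms of the same functions were higher. Pygb, the brain-type phosphorylase, rose by 1.09 (SE 0.11), from between 9.13 and 9.80 in WT to between 10.47 and 10.81 in KO, and Ppp1r3d, another targeting subunit, by 1.31 (SE 0.11). Pygm, the muscle phosphorylase, had a value of 1.51 without a call and of -0.66 with the scores.

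**Figure D4:**
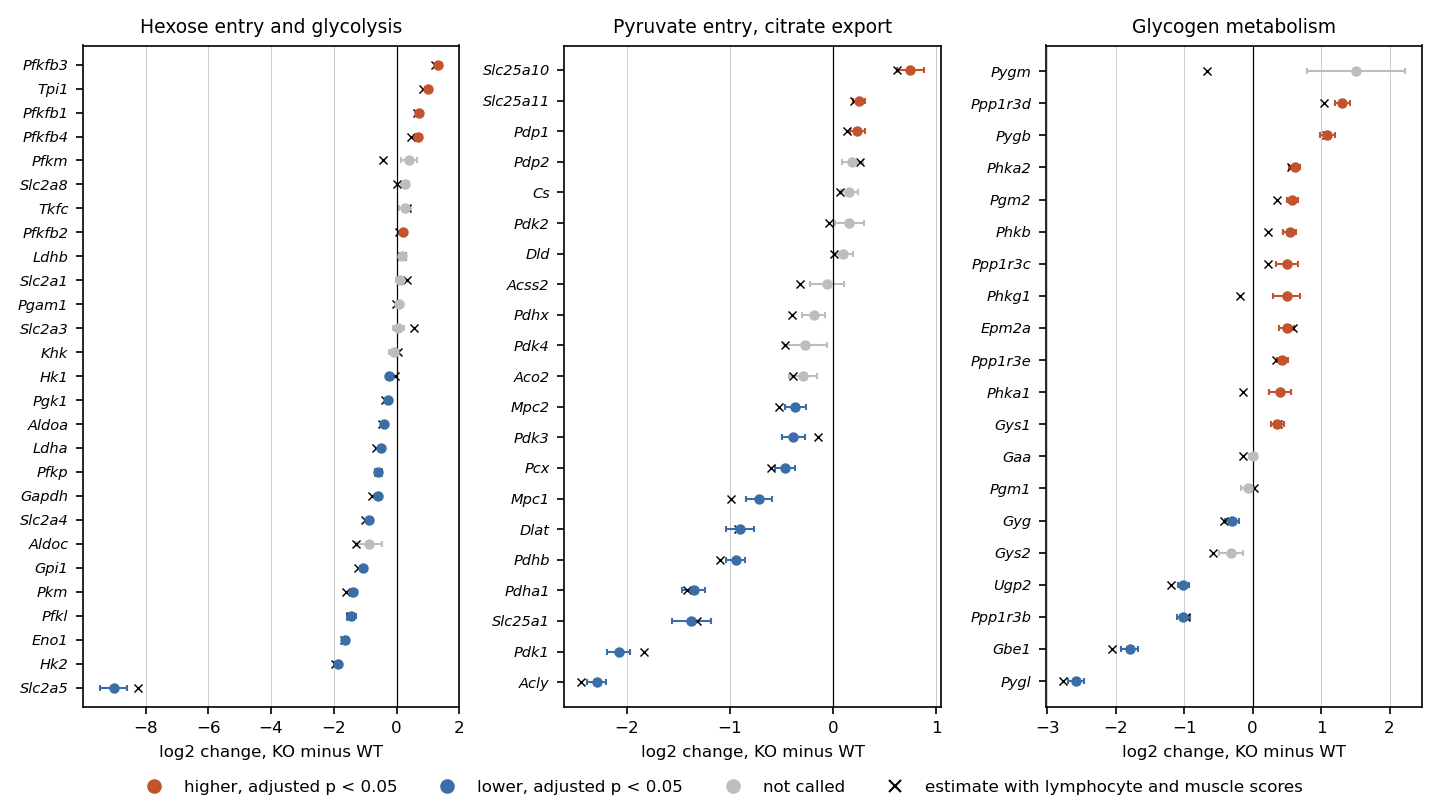
Log2 change, KO minus WT (x axis), with its SE, for tested members of 3 lists: hexose entry and glycolysis (27 of 28 shown), pyruvate entry and citrate export (all), and glycogen metabolism (20 of 21 shown). Colour marks the call at an adjusted p under 0.05 and crosses give the estimate with lymphocyte and muscle scores as covariates, which for Pygm is -0.66 against 1.51.

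Of 14 adipocyte markers 12 were higher and 1, Slc2a4, was lower, and 7 and 1 with the scores. Lpl, lipoprotein lipase, was 16.09, 16.37 and 16.58 in WT and 17.86, 17.92 and 18.00 in KO, a change of 1.54 (SE 0.08, adjusted p = 2.6e-13). Adipoq, adiponectin, rose by 1.05 (SE 0.09) and Cidec, a droplet protein, by 1.12. In lipolysis and droplet coats 10 of 22 were higher and 5 lower (8 and 4 with the scores). The β-adrenergic receptors went apart, as Adrb3 rose by 1.53 (SE 0.12) while Adrb1 fell by 1.69 (SE 0.16). So did the perilipins. Plin4 rose by 1.20 and Plin1 by 0.85, but Plin2 fell by 1.39 (SE 0.13) and Plin5 by 0.75. Pde3b, the phosphodiesterase through which insulin restrains lipolysis, rose by 1.27 (SE 0.09).

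In triglyceride assembly 7 of 16 genes were higher and 4 lower (5 and 3 with the scores). Pck1, which makes the glycerol backbone from pyruvate, was 13.19, 13.90 and 14.27 in WT and 16.38, 16.55 and 16.72 in KO, a change of 2.73 (SE 0.17, adjusted p = 6.35e-12). Agpat9, a glycerol-3-phosphate acyltransferase, rose by 2.27 (SE 0.12). Gpd1, which makes the same backbone from a glycolytic intermediate, fell by 0.69 (SE 0.07). In fatty acid uptake 8 of 16 were higher and 4 lower, and 5 and 2 with the scores (Acsl6 was below the filter). Acsl1, an acyl-CoA synthetase, rose by 1.40 (SE 0.08) and the fatty acid translocase Cd36 by 0.68, while the thioesterase Acot1 fell by 1.17 (SE 0.19).

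Fatty acid oxidation had 14 of 23 genes higher and 4 lower, and 8 and 4 with the scores. Cpt1a, the liver form of the carnitine palmitoyltransferase at the mitochondrial entry, rose by 1.63 (SE 0.18), whereas Cpt1b, the muscle and brown fat form, fell by 1.57 (SE 0.28). Peroxisomal enzymes were higher, with Ehhadh at 1.14 (SE 0.16) and Acaa1b at 0.96 (SE 0.10). The mitochondrial trifunctional protein was lower in both subunits, Hadha at -0.58 and Hadhb at -0.41. Ppara, a nuclear receptor that controls many of these genes, rose by 1.03 (SE 0.17). Of 29 respiratory chain genes 9 were higher and 0 lower, but 1 was higher with the scores.

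Breakdown of branched-chain amino acids was the pathway with the largest share of higher members in the 34 lists, 19 of 23, with 1 lower. With both scores 15 were higher and 1 lower. Bcat2, the mitochondrial transaminase of the first step, was 11.14, 11.37 and 11.98 in WT and 13.35, 13.61 and 14.10 in KO, a change of 2.25 (SE 0.14, adjusted p = 3.16e-12). In every KO mouse it was above every WT mouse. Of the dehydrogenase complex of the second step, Dbt rose by 1.16 (SE 0.09), Bckdhb by 1.00 (SE 0.07) and Bckdha by 0.41. Further down, Mccc2, a subunit of the leucine pathway's carboxylase, rose by 1.24 (SE 0.10) and Ivd, isovaleryl-CoA dehydrogenase, by 1.04 (SE 0.12). Bcat1, the cytosolic transaminase, was between 7.19 and 7.81 in KO and between 8.19 and 8.97 in WT, and fell by 1.01 (SE 0.14). The regulators of the complex were not called, with Bckdk, its kinase, at -0.01 and Ppm1k, its phosphatase, at -0.08.

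The list of serine, one-carbon and ATF4 target genes was divided, with 8 of 21 higher and 10 lower (8 and 6 with the scores). Beside Cbs and Cth, the enzymes of serine synthesis Psat1 and Phgdh rose by 1.49 (SE 0.07) and 1.24 (SE 0.15), although the third, Psph, fell by 0.46. Asns, asparagine synthetase, was 12.07, 12.47 and 12.78 in WT and 13.58, 13.86 and 14.03 in KO, a change of 1.41 (SE 0.12), opposite in direction to the asparaginase Aspg. Atf4 itself, the transcription factor of the amino acid response, fell by 0.39, and its known targets Chac1, Trib3 and Atf5 by 0.69, 0.59 and 0.47. Sesn2, another, rose by 1.14 (SE 0.14). The cystine carrier subunit Slc7a11 fell by 1.38 (SE 0.20), with 4 of 7 KO arrays above background. The mitochondrial folate enzymes Mthfd2, Shmt2 and Mthfd1l fell by 0.60, 0.40 and 1.20, and none of these 3 was called with the scores.

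Genes that act on foreign compounds and retinoids were higher in 14 of 25 and lower in 2 (8 and 2 with the scores), and 3 more, Nr1i2, Cyp2b13 and Cyp2b23, were below the filter. Beside the Cyp2b enzymes, Cyp2e1 was 14.19, 14.91 and 15.74 in WT and 17.60, 17.72 and 18.04 in KO, a change of 2.82 (SE 0.32, adjusted p = 1.16e-07). Cyp2f2 rose by 1.87 (SE 0.22) and the carboxylesterase Ces1f by 1.13 (SE 0.19). Nr1i3, the nuclear receptor known to induce Cyp2b10, changed by -0.03 without a call. Ephx1, an epoxide hydrolase that is often induced together with these enzymes, fell by 0.75. Of 22 tested NRF2 target and glutathione genes (Gsta1 was not on the array) 10 were higher and 3 lower, and 5 and 5 with the scores. Glutathione transferases were among the higher ones, with Gstt1 at 0.96, Gstm2 at 0.81 and Gstm1 at 0.68.

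**Figure D5:**
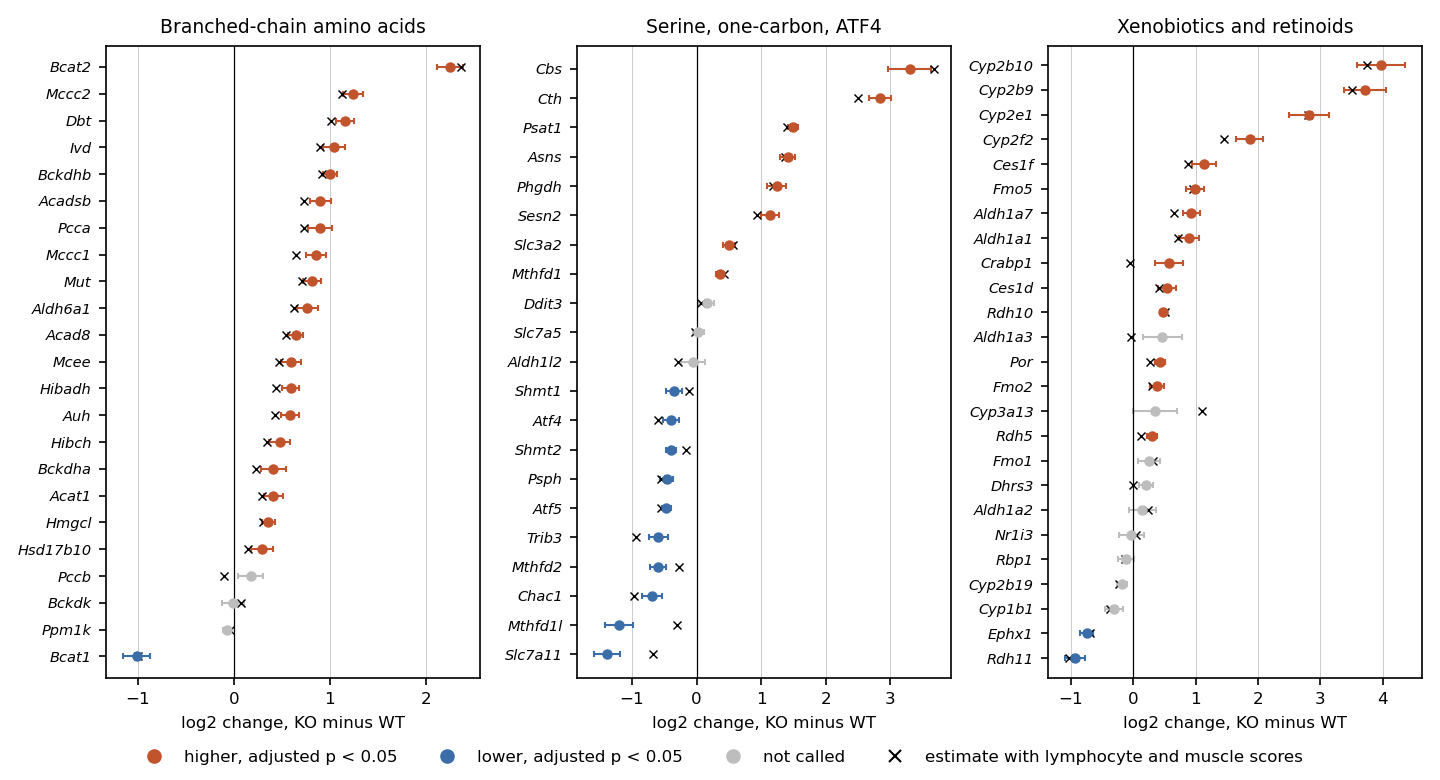
Log2 change, KO minus WT (x axis), with its SE, for every tested member of 3 lists: branched-chain amino acid breakdown, serine, one-carbon and ATF4 target genes, and xenobiotic and retinoid metabolism. Colour marks the call at an adjusted p under 0.05 and crosses the estimate with lymphocyte and muscle scores, and the rises of Bcat2 (2.25), Cbs (3.30), Cth (2.84) and Cyp2b10 (3.97) are at the top of their lists.

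Transcription factors of adipocytes and metabolism were higher in 10 of 25 genes and lower in 3, and 8 and 0 with the scores. Klf15, a Krüppel-like factor, was 10.77, 11.38 and 11.99 in WT and 13.37, 13.40 and 13.67 in KO, a change of 2.07 (SE 0.13, adjusted p = 4.86e-12). Cebpa, a driver of adipocyte differentiation, rose by 1.14 (SE 0.08), Zfp423, which marks the white adipocyte lineage, by 1.31 (SE 0.10), Nr1h3, the oxysterol receptor LXRα, by 0.86 (SE 0.06) and Foxo1 by 0.41. Srebf1 changed by -0.14 and Ppargc1a by -0.33 without a call. In ChREBP's own family and the arrestins related to Txnip 3 of 11 were higher and 3 lower, and 2 and 1 with the scores. Mlxip, which encodes the paralogue MondoA, fell by 0.25 (SE 0.08, adjusted p = 0.0121), with no call with the scores (-0.12). Mlx had a value of 0.04 and Txnip, a widely used readout of these factors, of -0.11 (SE 0.09, adjusted p = 0.333), neither called, and Txnip lay between 14.87 and 15.12 in KO and between 14.97 and 15.31 in WT. Its relatives Arrdc3 and Arrdc4 rose by 1.14 (SE 0.10) and 0.53.

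Among core clock genes 10 of 19 were higher and 3 lower (4 and 3 with the scores). Per3 was 8.22, 8.68 and 8.96 in WT and 9.69, 10.00 and 10.79 in KO, a change of 1.49 (SE 0.29, adjusted p = 0.000153). Per2 rose by 1.29 (SE 0.17), with a second probe at 0.09, and Hlf, a clock-controlled factor, by 1.38 (SE 0.25). Bhlhe40, which represses clock genes, fell by 1.86 (SE 0.21). Arntl and Npas2, partners in the core activator, both had a value of -0.10 and Cry1 of -0.27, none called. Time of death is not given in the labels.

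Of 19 tested adipokines and secreted proteins (Bmp8b was below the filter) 12 were higher and 3 lower, and 5 and 2 with the scores. Fgf21, a hormone of the fasting and fed response, was 5.32, 5.85 and 6.78 in KO and 8.58, 9.43 and 10.18 in WT, a change of -3.43 (SE 0.28, adjusted p = 5.84e-10). Angptl8, an inhibitor of lipoprotein lipase that the array names Gm6484, fell by 1.85 (SE 0.21). Serpina3c, a protease inhibitor, rose by 1.78 (SE 0.09), Apln, apelin, by 1.26 (SE 0.20) and Rbp4, retinol-binding protein, by 1.02 (SE 0.11). In the growth hormone and insulin-like growth factor axis 7 of 15 were higher and 2 lower (6 and 0 with the scores), and Igfbp1 and Igfbp2 were below the filter. Igfals, which stabilizes circulating IGF complexes, rose by 1.83 (SE 0.14), from between 7.68 and 8.58 to between 9.74 and 10.20. Ghr, the growth hormone receptor, rose by 1.03 (SE 0.09) and Igf1 by 0.68 (SE 0.07). Cish and Socs2, feedback inhibitors of that receptor, had values of -1.39 without a call and -0.59 with one.

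Insulin signalling genes were higher in 14 of 27 and lower in 3 (6 and 1 with the scores). Eif4ebp1, a repressor of translation, rose by 1.25 (SE 0.08), Pik3r2, a regulatory subunit of phosphoinositide 3-kinase, by 0.92 (SE 0.06) and Insr by 0.48, while Mtor fell by 0.72 (SE 0.14). Irs2 rose by 0.64 (SE 0.22, adjusted p = 0.0191), with a KO range of 10.41 to 12.53 that covers the WT range, and was not called with the scores (adjusted p = 0.307).

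In N-acetylaspartate and creatine metabolism 5 of 15 were higher and 4 lower, and 2 and 3 with the scores. Nat8l, which makes N-acetylaspartate, was 11.20, 11.59 and 11.93 in KO and 12.79, 13.03 and 13.53 in WT, a change of -1.55 (SE 0.15, adjusted p = 1.28e-08). Got1 and Got2, the aspartate transaminases, fell by 0.83 and 0.99, and Ckb, a creatine kinase, rose by 1.43 (SE 0.11). Sterol synthesis had 10 of 24 higher and 4 lower (5 and 3 with the scores). Its regulator Insig1 rose by 1.13 (SE 0.17), Tm7sf2 by 1.17 and Hmgcs1 by 0.91, whereas Lss, lanosterol synthase, fell by 0.49. In iron and haem 8 of 20 were higher and 2 lower (2 and 1 with the scores), with Alas1, the first enzyme of haem synthesis, at 1.15 (SE 0.09) and the transferrin receptor Tfrc at -0.77 (SE 0.16). Nucleotide and aminosugar genes were higher in 6 of 23 and lower in 6 (1 and 4 with the scores), led by Prps1, a phosphoribosyl pyrophosphate synthetase, which rose from a median of 12.42 in WT to 13.66 in KO, and Pgm3, of aminosugar synthesis, which fell by 0.88.

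In further lists fewer members were called with both scores, as in many lists above and over all genes (45.8% without and 14.5% with the scores). Cell cycle genes were lower in 18 of 23 and higher in 0 (median -0.92, Bub1 below the filter), led by Top2a, a topoisomerase of dividing cells, at -1.71, and 1, Ccnb1, was lower with the scores. Proteasome genes were higher in 15 of 20, and 3 with the scores, among them Psma1 (0.89, SE 0.07). Ribosomal protein genes were lower in 7 of 22, by up to 0.34 (Rpl5), and in 0 with the scores. That count was 3 without KO replicate 1, 4 or 7 or WT replicate 1 or 8, 4 without WT replicate 7, 11 without KO replicate 3 and 15 without WT replicate 4. Interferon-stimulated genes were lower in 4 of 22, with Mx1 at -1.78 (SE 0.53), and in 0 with the scores. Their median was -0.71, and -0.74 with the scores. The count was 2 without any one KO array or without WT replicate 5, 7 or 8, and up to 6 without another WT array. Over the other alternatives it ran from 0 to 17. In 9 of the 22 genes the ranges of KO and WT were separate, against 14.8% of all genes. The interferon score was 9.53 to 9.77 in KO and 10.00 to 11.36 in WT. Its SD was 0.09 and 0.48 there, but 1.12 and 0.95 in KO and WT of the ChREBPβ line, which share the model's estimate of spread. Imprinted growth genes were higher in 8 of 14 and lower in 1, and 2 and 0 with the scores (Zim1 and Phlda2 below the filter), and without WT replicate 6 in 4 and 1. Plagl1, a zinc finger factor, rose by 2.11 (SE 0.16) at the brightest probe, with others at 0.01 and -0.08. Genes of endothelium and angiogenesis were higher in 9 of 18 (median 0.21) and in 2 with the scores (median 0.24), with Vegfb, a growth factor of the VEGF family, at 1.07 (SE 0.10). Heat shock genes were higher in 4 of 16 and lower in 1, and 1 and 0 with the scores. Endoplasmic reticulum stress genes were higher in 8 of 22 and lower in 1 (4 and 1 with the scores), with Edem1 at 0.83. The lymphocyte and muscle scores moved with the groups in all of these lists, and their part in them was not tested beyond the covariate fit.

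Among genes of the stroma and of other cell types, collagens and matrix genes were higher in 7 of 28 and lower in 1 (4 and 0 with the scores), with Loxl1, a crosslinking enzyme, at 1.02 (SE 0.11) and Col6a3 at 0.87. Progenitor genes were higher in 3 of 16 and lower in 3 (2 and 2 with the scores). Fst, follistatin, fell by 0.87 (SE 0.13) and F3, tissue factor, by 0.84 (SE 0.14). Macrophage markers were lower in 5 of 15 (median -0.71), in 0 with the scores (median -0.76) and in 3 without WT replicate 8, with their score between 10.30 and 10.90 in KO and between 10.56 and 12.26 in WT. Mast cell markers were called in 1 of 8, with and without the scores. That one was Kit, the stem cell factor receptor, which fell by 2.51 (SE 0.27) and is not confined to mast cells, while the mast cell proteases Cpa3 and Mcpt4 had values of -0.17 and -0.27. Of 12 tested brown and beige markers (Zic1 below the filter) 7 were lower and 2, Dio2 and Lhx8, higher, and 7 and 1 with the scores. Nerve and Schwann cell markers were called in 3 of 10 (Pmp22 at 1.22, Sox10 at 0.64 and Mbp at -0.62, with other Mbp probes at 0.52 and 0.79), and in the same number with the scores. Lymph node stroma genes were lower in 5 of 7 (Madcam1 below the filter, Fdcsp not on the array) and in 0 with the scores. Plasma cell markers were lower in 2 of 7 and higher in 1, epithelial markers higher in 1 of 7 (Epcam, Krt5 and Elf5 below the filter) and red blood cell markers called in 0 of 6 (2 more below the filter), and these 3 lists had 0 calls with the scores. At an unadjusted p of 0.05 the red blood cell list also had 0 calls.

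The effect of losing both isoforms was then compared with the effect of losing ChREBPβ alone, by the interaction term. It was called for 23.2% of all genes and for 24 of the 24 genes named by size. These 24 were chosen by their change in the total line, so that their count is in part given by the choice. With both scores 22 of them were called (not Acot11, adjusted p = 0.0786, and Aspg, adjusted p = 0.238). Among the lists, 18 of 23 genes of branched-chain amino acid breakdown, 13 of 21 glycogen genes, 13 of 21 serine and ATF4 genes and 14 of 28 glycolytic genes had a call. With both scores these counts were 9, 7, 8 and 12, against 1537 of all 25407 genes. The term was also called for 17 of 18 lymphocyte and 15 of 23 cell cycle genes, and for 0 of either with the scores. For the lymphocyte genes, which make up a score, the loss of the calls is largely given by the fit. In each line the KO was compared with its own WT. For Bcat2 the change was 2.25 in total ChREBP-KO and -0.24 in ChREBPβ KO, a difference of 2.49 (adjusted p = 6.71e-09). For Foxo6 the values were 4.30 and -0.01, and for Cth 2.84 and 0.12. For Slc25a1, the citrate carrier, they were -1.37 and -0.96, with no call for the difference (-0.42, adjusted p = 0.313). All of the 12 largest falls were also negative in ChREBPβ KO, though smaller. Prss35 changed there by -2.01, Sorcs2 by -1.90 and Adcy10 by -1.75 (limma adjusted p = 0.00793, 0.0178 and 0.0350). Of the 12, only these were called in ChREBPβ KO. The WT mice of both lines did not start from the same level in all genes. Cbs had a mean of 8.03 in WT of the total line and 9.38 in WT of the ChREBPβ line, and Ucp1 of 15.46 and 8.61. The lymphocyte score, at 10.51 to 12.10 in the first, was 7.04 to 7.90 in the second, and its part in the differences was not tested beyond the covariate fit.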

How the data were processed

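RNA from inguinal subcutaneous white adipose tissue was labelled with Cy3 and hybridized to 1-colour Agilent arrays, 1 per mouse. The deposited scanner files hold the intensity of each spot, extracted by the authors with Agilent Feature Extraction 10.10.1.1 per the submitters' processing notes, and a deposited table holds log2 values of the same arrays, which served as an alternative. From the median intensity of 59305 spots that were not controls, outlier spots were set to missing (97 values), probes were kept that were well above background on at least 21 of 26 arrays or 75% of a group, replicate spots were summarised by their median, and log2 values were quantile normalized. A model with 4 groups was fitted to all 26 arrays (22 residual degrees of freedom) in limma 3.58.1 (R 4.3.3), with Benjamini-Hochberg adjustment over 38832 probes and a threshold of 0.05. A gene is represented by its brightest probe. Probe positions are those of the files, in mm9, and promoter windows are from RefSeq for GRCm38.p6, matched by symbol. The number of arrays limits the precision.

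Groups were taken from the titles. Genes were named by size, 12 in each direction, among those called with and without the lymphocyte and muscle scores as covariates, without overlap and above background on every array of the brighter group. Some genes are not reported here. Genes without an established symbol in the gene table were not named. Within each list up to 5 called members with the largest absolute change were to be named. Further members were named after their values were seen, as partners, isoforms or regulators of these or because they changed the other way, as were the marker genes and the genes set side by side between the lines. The comparison, the lists and the genes were chosen with earlier results of these data known, so that no list is independent evidence, and no list was tested as a set. The scripts were tested on simulated data. Alternatives were other scalings, background corrections, filters, array weights, wash batch, slide or replicate number as a block, the 14 arrays alone, other probes, the scores as covariates and leaving out arrays. The labels do not say whether the replicate numbers pair the mice.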

Additional observations from a re-analysis of the deposited data

Results flagged for a closer look

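Of 58 groups of arrays examined, 5 had an array far from the other arrays of its group, where chance alone gives about 1 in 20. Slc2a5 was 7.91 (log2) in KO replicate 8, with the other KO arrays between 4.23 and 5.50. Cbs was 10.01 in WT replicate 6, with the others between 7.48 and 8.19. Aspg was 12.73 in WT replicate 1, with the others up to 14.67. Foxo6 was 6.89 in the same array, with the others between 6.22 and 6.51. Slc2a13 was 11.10 in KO replicate 2, with the others between 11.71 and 11.90. None of these arrays reached the range of the other genotype, which the choice of these genes by size required.

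The effect of the total KO differed from that of the ChREBPβ KO, by the interaction term in limma, for Mlxipl at its brightest probe and all 24 genes named by size. At the other Mlxipl probes the term was not called, at -0.22 and -0.17 (adjusted p = 0.419 and 0.291). The difference of the log2 changes, total minus ChREBPβ, was -0.77 for Mlxipl at its brightest probe (adjusted p = 0.00339). Among the falls it was -7.17 for Slc2a5, -5.32 for Ucp1, -3.91 for Ntrk3, -3.85 for Hephl1, -3.82 for Oxtr, -2.93 for Pth1r, -2.90 for Sorcs2, -2.76 for Adcy10, -2.68 for Maff, -2.51 for Prss35, -2.43 for Acot11 and -2.05 for Aspg. Among the rises it was 4.67 for Unc93a, 4.30 for Foxo6, 3.93 for Cyp2b10, 3.76 for Cyp2b9, 3.16 for Cbs, 3.08 for Slc25a34, 3.05 for Hydin, 2.92 for Nap1l5, 2.73 for Cth, 2.71 for Lrrtm1, 2.65 for Slc2a13 and 2.64 for Rgs7bp. The adjusted p ran from 1.26e-10 for Unc93a to 0.0177 for Aspg. Since the genes were chosen by their change in the total line, a larger change there is in part given by the choice.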

How the results depend on the processing

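At its brightest probe the fall of Mlxipl lay between -2.46 and -2.21 (log2) under every alternative run (its other probes gave -0.90 and -0.13), and between -2.33 and -2.21 when each array was left out in turn. The number of genes called, 11644, was most sensitive to the cell type scores. It was 3993 with the lymphocyte score and 3683 with both scores as covariates, 3915 with a change of at least 1.5-fold as well, and 7642 without the KO arrays of lowest lymphocyte score (an alternative chosen after seeing the data, as were the fit of the 14 arrays under the normalization of all 26 and the removal of the WT arrays of high muscle score). Leaving out each array in turn gave 10536 to 12287 genes. The difference between the lines was called for 5883 genes, 1672 with the lymphocyte score, 1537 with both scores, 3020 without those KO arrays, and 4890 to 6878 with each array left out in turn. The lymphocyte score nearly separates the groups, whereas the muscle scores of KO and WT overlap widely. A call lost with the scores is therefore not shown to be absent. KO and WT arrays with the same replicate number had correlations of deviations from -0.35 to 0.51, which cannot settle whether the mice were paired. With the replicate block 9462 genes were called and Mlxipl stood at -2.29 (limma adjusted p = 1.67e-05). All 24 genes named by size kept their direction and call in every alternative that tested them, except at a second probe of Slc25a34 (-0.0459) and of Unc93a (-0.0193). Their choice required a large change, groups without overlap and a call with both scores, so that this stability is in part given by the choice. With the scores Rps6 turned to 0.0657 (lymphocytes) and 0.0412 (both), Rpl8 to 0.0392 and 0.0256 and Rplp1 to 0.0298 (lymphocytes). Of 168 list genes followed, 120 kept their call with both scores and 145 without the KO arrays of lowest lymphocyte score. Probes near background, such as Slc2a5 and Prss35 in KO, limit the size of the largest falls.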
